A study of Mus musculus with 12 samples.

Results

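The Gadd45 genes were followed in mouse kidney tubular epithelial cells given TGFβ, an inhibitor of nicotinamide N-methyltransferase (NNMT), or both. The 4 genes described are *Gadd45a* (ENSMUSG00000036390), *Gadd45b* (ENSMUSG00000015312), *Gadd45g* (ENSMUSG00000021453) and *Gadd45gip1* (ENSMUSG00000033751), taken by name from a count table of 55487 genes. They were chosen by name as a family, with their earlier measured difference between TGFβ and control in view, so their values in that comparison, and in the interaction that contains it, are given without a test. All 4 passed the filter on low counts, which kept 13581 genes. The cells, im-TEC, are a conditionally immortalized line that carries SV40 large T antigen. They are kept at 33 °C with interferon-gamma, and in all groups they had spent 7 days at 37 °C without it before seeding. The 4 groups of 3 libraries were untreated control, TGFβ at 10 ng/mL, the inhibitor 5-amino-1-methylquinolinium (NNMTi) at 50 µM, and TGFβ with the inhibitor at those doses (the combined group), all for 48 h. All libraries come from 1 line, and no label ties a replicate to its own culture: the p-values reflect the spread of these libraries, which may be technical.

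GADD45A, GADD45B and GADD45G are small acidic nuclear proteins without enzyme activity of their own, named for growth arrest and DNA damage. They bind the kinase MAP3K4 upstream of p38 and JNK, the mitotic kinase CDK1 with cyclin B1, and PCNA and the CDK inhibitor p21, and they have been tied to active DNA demethylation. *Gadd45a* is a classical p53 target, *Gadd45b* (once called MyD118) is an early target of TGFβ and NF-kB, and *Gadd45g* (CR6) responds to cytokines. GADD45GIP1 (CRIF1) was named for binding GADD45 proteins, but it is also a protein of the large subunit of the mitochondrial ribosome and is needed to insert newly made respiratory chain proteins into the inner membrane.

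The promoters of the 3 Gadd45 genes are shown because these genes responded differently to the 2 agents. Each run is the 250 bases before the transcript start, 5′ to 3′ on the gene's strand, from RefSeq on GRCm38.p6, at chr6:67037408-67037657 (minus strand) for *Gadd45a*, chr10:80929841-80930090 (plus strand) for *Gadd45b* and chr13:51846425-51846674 (plus strand) for *Gadd45g*. Capitals mark the octamer ATGCAAAT, the CCAAT box, the TATA box TATAAA and the E-box CACGTG, on either strand.
Gadd45a: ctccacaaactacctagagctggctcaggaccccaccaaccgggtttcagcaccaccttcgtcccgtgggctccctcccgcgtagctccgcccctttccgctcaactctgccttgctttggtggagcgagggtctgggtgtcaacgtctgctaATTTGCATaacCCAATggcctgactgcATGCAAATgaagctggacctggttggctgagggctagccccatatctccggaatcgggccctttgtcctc
Gadd45b: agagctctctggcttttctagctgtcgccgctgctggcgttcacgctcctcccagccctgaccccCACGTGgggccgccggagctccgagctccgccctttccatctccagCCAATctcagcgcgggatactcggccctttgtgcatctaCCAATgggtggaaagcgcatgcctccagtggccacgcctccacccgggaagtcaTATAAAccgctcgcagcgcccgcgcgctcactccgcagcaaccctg
Gadd45g: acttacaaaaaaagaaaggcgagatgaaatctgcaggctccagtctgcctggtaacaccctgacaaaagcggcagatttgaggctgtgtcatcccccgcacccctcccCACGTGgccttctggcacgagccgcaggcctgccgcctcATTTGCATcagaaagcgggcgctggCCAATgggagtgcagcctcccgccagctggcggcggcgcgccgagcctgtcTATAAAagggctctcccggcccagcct
All 3 promoters held a CCAAT box, the element bound by NF-Y, which 33.9% of 32851 promoters held in the same window. The box nearest the start began 86 bases before it in *Gadd45a*, 100 in *Gadd45b* and 78 in *Gadd45g*. The octamer, the element of OCT1, occurred in 1.60% of promoters. It was found at 97 and 70 bases before the start of *Gadd45a*, once in each orientation and on both sides of the CCAAT box, and at 103 bases in *Gadd45g*. *Gadd45b* and *Gadd45g* held TATAAA (12.4% of promoters), 46 and 27 bases before the start, and CACGTG (6.02%), 185 and 142 bases before it, and neither run of letters was in the *Gadd45a* window. The SMAD element CAGAC, held by 42.2% of promoters, occurred at 2 places in *Gadd45a*, 1 in *Gadd45g* and none in *Gadd45b*. The GC box GGGCGG (32.7%) was found once each in *Gadd45a* and *Gadd45b*, and the AP-1 element TGANTCA (6.75%) and the cAMP element TGACGTCA (1.55%) in none of the 3. Both strands were searched for each motif, no 2 of the capitalised matches overlapped, and a match of letters does not show that a factor binds. All distances are from 1 RefSeq start for each gene. In the GENCODE M21 annotation *Gadd45a* begins at chr6:67037457 and *Gadd45b* at chr10:80930073, both inside the printed windows. Distances from those starts would be shorter.

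Libraries held 7838352 to 11866903 counts in genes, apart from TGFβ replicate 3 with 2584117. The count of 3 in a library corresponded to 0.266 to 1.15 CPM (counts relative to the TMM-scaled library size), so all 4 genes lay far above that floor. Spread between replicates was largest with TGFβ, where the biological coefficient of variation was 0.228; in the other groups it was 0.0657 (control), 0.0885 (inhibitor) and 0.112 (combined). TGFβ replicate 2 stood apart, with a quality weight of 0.146 where the other 11 libraries had 0.674 to 1.90. Of 12 tubular epithelial markers, *Aqp1*, *Pax8*, *Pax2*, *Cdh16* and *Lrp2* were present, while *Epcam* and *Slc34a1* had no count in any group. Tubular markers summed to 1884 to 2044 CPM in control, 1913 to 1966 in inhibitor, 702 to 1096 in TGFβ and 685 to 715 in combined libraries. The difference was mostly *Aqp1* (1013 CPM in control and 25.2 CPM in TGFβ libraries), while *Krt8* was higher with TGFβ (288 against 62.6 CPM) and *Lrp2* was highest in the combined group (119 CPM). Of 7 fibroblast markers, *Pdgfra*, *Lum* and *Thy1* had no count in any group, and the list summed to 3.63 to 7.37, 3.19 to 5.21, 150 to 187 and 35.4 to 46.6 CPM in the same order, most of it *Col1a1*. Of 6 immune markers *Adgre1* had no count in any group, and the sums, mostly *Cd68*, were at most 8.19 CPM. The 5 endothelial markers summed to at most 0.437 CPM. Of 5 podocyte markers *Nphs1* had no count in any group, and *Podxl* and *Synpo* gave most of the 299 to 443 CPM. The part of these levels in the results below was not tested, and in bulk RNA fewer cells of a kind and less RNA per cell cannot be told apart.

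*Gadd45g* was the most abundant of the 3 Gadd45 genes in the controls, at 105, 101 and 105 CPM in replicates 1 to 3. Because the libraries read 1 tag at the 3′ end of each transcript, levels of different genes can be compared without their lengths. With the inhibitor alone it stood at 104, 106 and 104 CPM, overlapping the controls. TGFβ libraries held 438, 615 and 437 CPM and combined libraries 517, 517 and 523 CPM, so that all 6 libraries with TGFβ lay above all 6 without. Between TGFβ and control the difference was 4.79-fold (log2 2.26 ± 0.12, SE), a description only. The combined group against the inhibitor shares no library with TGFβ against control, though the genes were chosen with earlier results of these data known. There *Gadd45g* rose 4.95-fold (log2 2.31 ± 0.12, adjusted p 2.93e-11, edgeR quasi-likelihood test), higher in 3 of 3 libraries. The inhibitor alone against control gave 0.01 ± 0.11 (95% interval -0.23 to 0.25, adjusted p 0.97). The order of mean levels was combined, TGFβ, inhibitor and control, and the ranges overlapped between the first 2 and between the last 2.

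*Gadd45b* had the same pattern at a lower level and with more spread. It stood at 33.7, 33.9 and 33.8 CPM in the controls and at 44.3, 41.8 and 31.3 CPM with the inhibitor. TGFβ libraries held 119, 221 and 94.5 CPM, and combined libraries 158, 130 and 133 CPM. Each library with TGFβ lay above each library without, and replicate 2 of the TGFβ group was the highest of all 12. The combined group against the inhibitor gave a rise of 3.59-fold (log2 1.84 ± 0.26, adjusted p 0.000163), and TGFβ against control, untested, a difference of 4.35-fold (log2 2.12 ± 0.26). Against control the inhibitor gave 0.21 ± 0.27 (95% interval -0.37 to 0.79, adjusted p 0.725). The order of means was TGFβ, combined, inhibitor and control; the ranges of the first 2 overlapped, as did those of the last 2.

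*Gadd45a* behaved unlike its relatives: it was lowest with TGFβ and it rose with the inhibitor in both settings. In the controls it stood at 71.0, 70.3 and 71.2 CPM, and with the inhibitor at 108, 110 and 114 CPM. With TGFβ it stood at 43.8, 31.4 and 44.4 CPM, below every control, a difference of -0.85 ± 0.13 on the log2 scale that is not tested here. In the combined group it stood at 113, 90.0 and 100 CPM, above every control and every TGFβ library. The inhibitor alone raised *Gadd45a* 1.56-fold (log2 0.64 ± 0.12, adjusted p 0.00221), higher in 3 of 3 libraries. Added to TGFβ, the inhibitor raised it 2.57-fold (log2 1.36 ± 0.13, adjusted p 2.2e-06), again in 3 of 3. This comparison uses the TGFβ libraries of TGFβ against control, the difference in view when the genes were chosen. The combined group and the inhibitor group overlapped, and the TGFβ effect between them was -0.13 ± 0.12 (95% interval -0.39 to 0.12, adjusted p 0.42). The order of means was inhibitor, combined, control and TGFβ, and among neighbours in it the ranges overlapped between inhibitor and combined alone. The interaction, the inhibitor difference with TGFβ minus that without, was 0.72 ± 0.18, given without a test because it holds TGFβ against control.

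**Figure D1:**
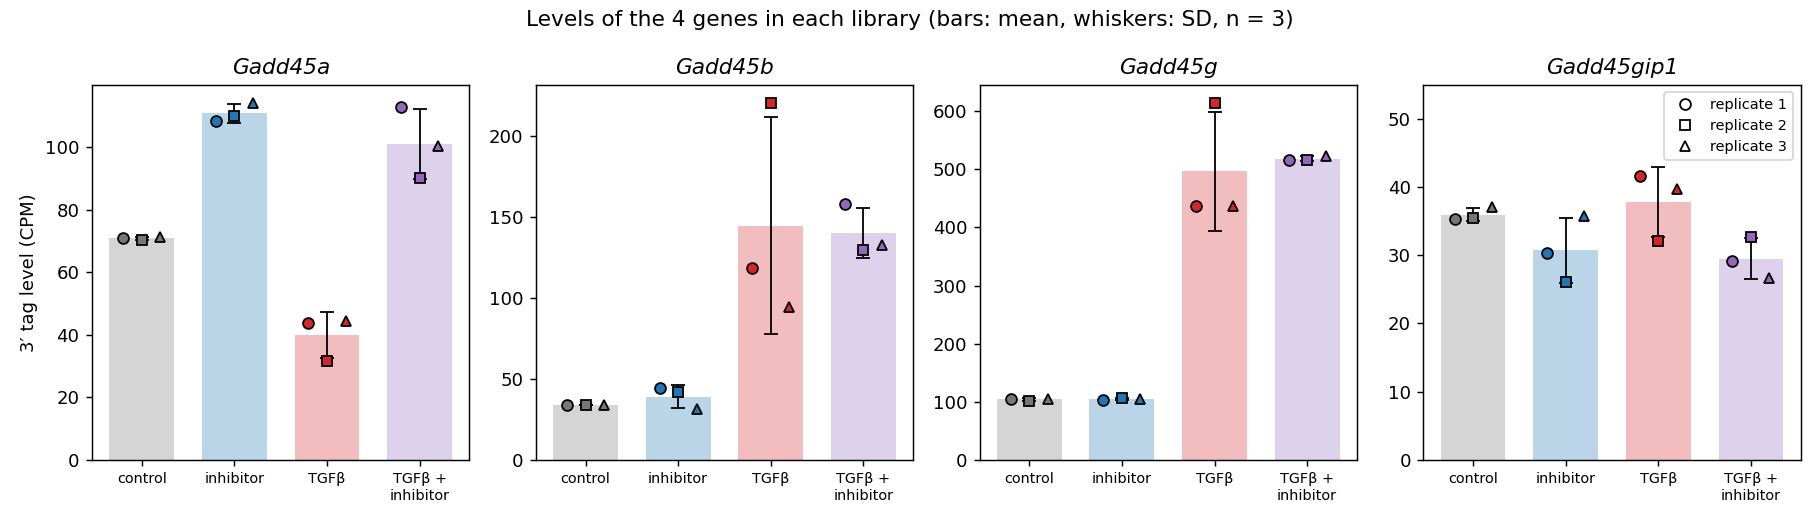
Level of each gene in CPM (vertical axis, from 0) in the 4 groups. Points are single libraries, bars the mean and whiskers the SD of 3 libraries. *Gadd45b* and *Gadd45g* are high in the 6 libraries with TGFβ, *Gadd45a* is high in the 6 libraries with the inhibitor, and *Gadd45gip1* ranges from 26.1 to 41.7 CPM.

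Set against the whole table, 1 of the 4 genes was called (adjusted p below 0.05) with the inhibitor alone, where 8.27% of all tested genes were called, and 1 of 4 when the inhibitor was added to TGFβ, where 10.4% were. In both the called gene was *Gadd45a*, and it was also the 1 of 4 whose libraries did not overlap between the groups, which held for 35.6% of genes in the first and 23.9% in the second comparison. In the combined group against the inhibitor 2 of 4 were called, *Gadd45b* and *Gadd45g*, against 36.3% of all genes, and these 2 did not overlap, against 52.1%. Between TGFβ and control the CPM of the 2 groups did not overlap for 3 of the 4, which held for 45.4% of tested genes, 36.5% being called. Comparisons with a shared group are not independent: the TGFβ libraries enter both TGFβ against control and the combined group against TGFβ. The control libraries enter both TGFβ against control and the inhibitor alone against control. TGFβ against control was in view when the genes were chosen, so neither inhibitor test is independent of that choice.

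**Figure D2:**
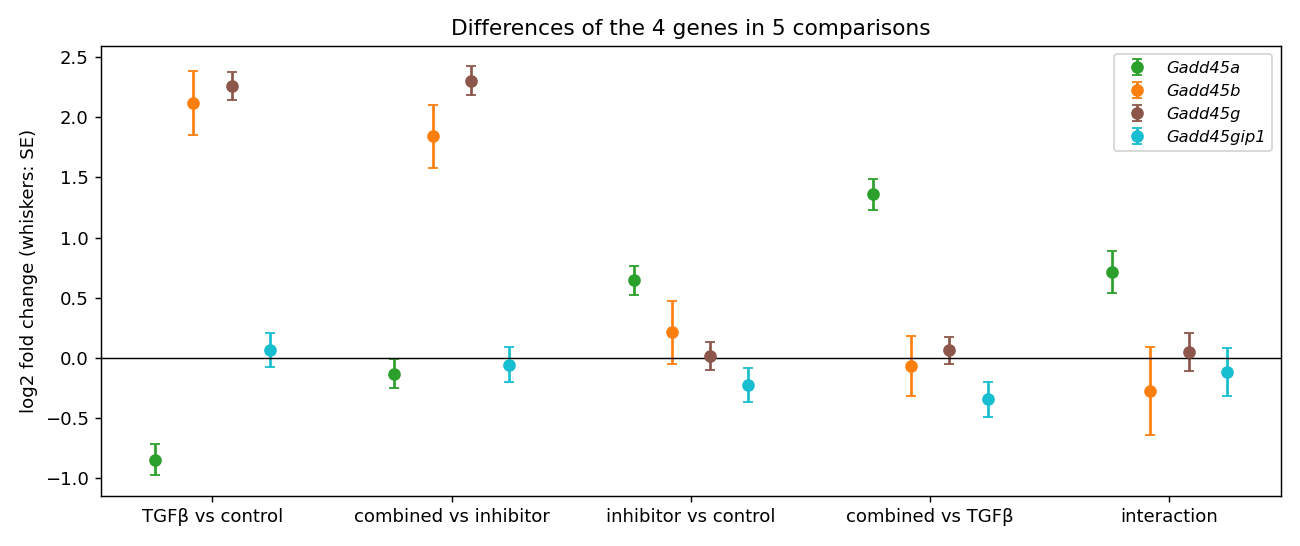
Log2 fold change (vertical axis) with its SE for the 4 genes in 5 comparisons; the interaction is the inhibitor difference with TGFβ minus that without. *Gadd45b* and *Gadd45g* lie between 1.84 and 2.31 in both TGFβ comparisons and near 0 in both inhibitor comparisons, while *Gadd45a* lies at 0.64 and 1.36 in the inhibitor comparisons.

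The inhibitor added to TGFβ left no called difference in *Gadd45g* (0.06 ± 0.11, 95% interval -0.17 to 0.30, adjusted p 0.782) or *Gadd45b* (-0.07 ± 0.25, interval -0.61 to 0.48, adjusted p 0.898), a reading that rests on 1 library. Without TGFβ replicate 2, *Gadd45g* was 0.25 ± 0.07 higher in the combined group (adjusted p 0.0272) and *Gadd45b* 0.38 ± 0.12 higher (adjusted p 0.0485). For *Gadd45a* leaving out each library in turn gave 1.20 to 1.47 with TGFβ and 0.60 to 0.65 without it, with adjusted p of at most 6.68e-05 and 0.0226.

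**Figure D3:**
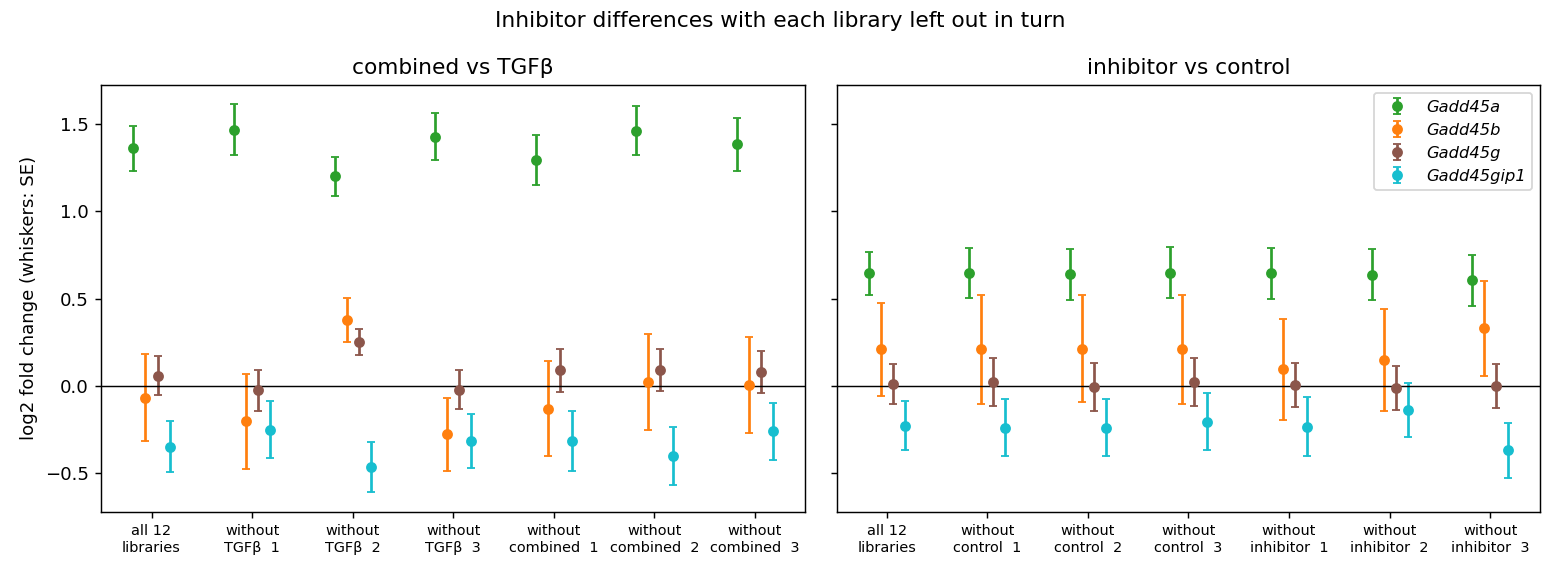
Log2 fold change (vertical axis) with its SE of the inhibitor with TGFβ (left) and without (right), from all 12 libraries and with each library of the 2 groups left out. *Gadd45a* stays between 1.20 and 1.47 on the left and between 0.60 and 0.65 on the right, and *Gadd45b* moves from -0.07 to 0.38 when TGFβ replicate 2 is left out.

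*Gadd45gip1* was not called in any of the 3 comparisons tested. Control libraries held 35.4, 35.5 and 37.1 CPM and inhibitor libraries 30.3, 26.1 and 35.7 CPM. TGFβ libraries held 41.7, 32.1 and 39.8 CPM, and combined libraries 29.2, 32.7 and 26.7 CPM. Both groups with the inhibitor had the lower means, and their ranges overlapped those of their counterparts without it. The inhibitor gave -0.23 ± 0.14 alone (95% interval -0.52 to 0.07, adjusted p 0.383) and -0.35 ± 0.14 with TGFβ (interval -0.65 to -0.04, adjusted p 0.137). The latter was called without TGFβ replicate 2 (-0.46 ± 0.14, adjusted p 0.0346). The combined group against the inhibitor gave -0.06 ± 0.14 (interval -0.36 to 0.24, adjusted p 0.794), and TGFβ against control 0.06 ± 0.14. In order of means, TGFβ, control, inhibitor and combined, each neighbour overlapped the next. The strand setting of the counting is not stated, so reads of a gene and of any gene that overlaps it on the other strand cannot be told apart. In GENCODE M21 *Gadd45a* overlaps the non-coding *E230016M11Rik* on the other strand, away from its 3′ end, and that gene had at most 3.43 CPM in any library. *Gadd45b* and *Gadd45g* overlap no annotated gene.

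The 3 Gadd45 genes together stood at 208 ± 2.63 CPM in control, 255 ± 4.37 in inhibitor, 681 ± 161 in TGFβ and 760 ± 25.8 in combined libraries (SD, n = 3, no test), and their make-up differed between the groups. *Gadd45a* made up 34.0 ± 0.229% of their counts in the controls, 43.5 ± 1.90% with the inhibitor, 6.21 ± 2.25% with TGFβ and 13.3 ± 1.04% in the combined group. *Gadd45g* made up 49.8 ± 0.479%, 41.2 ± 0.653%, 73.2 ± 2.51% and 68.3 ± 2.40% in the same order. The share of *Gadd45b* lay between 12.5% and 25.5% in all 12 libraries, the highest in TGFβ replicate 2 (exact 95% interval 24.6 to 26.3%, counting error only). The *Gadd45a* share of each combined library was above that of every TGFβ library, the nearest being 7.70% (6.41 to 9.17%) in TGFβ replicate 3 and 12.2% (11.4 to 13.0%) in combined replicate 2.

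**Figure D4:**
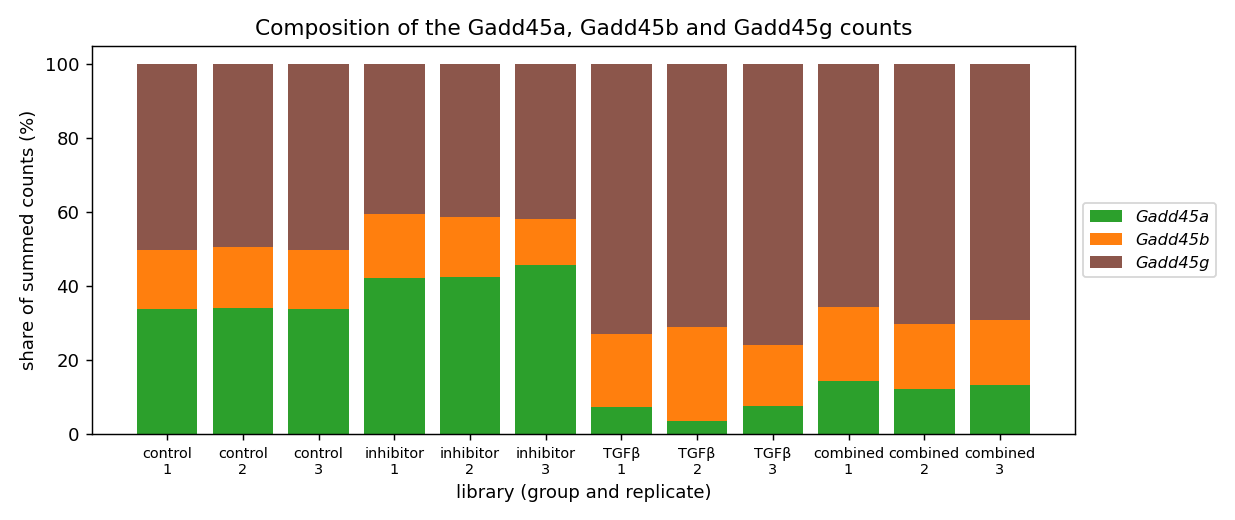
Share (vertical axis, %) of *Gadd45a*, *Gadd45b* and *Gadd45g* in their summed counts, 1 bar for each of 12 libraries. *Gadd45a* averages 34.0% of the counts in the controls, 6.21% with TGFβ and 13.3% in the combined group.

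Of the p38 and JNK cascade that GADD45 proteins act through, *Map3k4* and *Mapk14* were not called, and the genes of 2 phosphatases rose wherever TGFβ was given. Of 17 genes of the p38 and JNK cascade 13 were tested. *Map3k4*, which GADD45 proteins activate, stood at 49.3 ± 8.45, 47.2 ± 4.03, 41.1 ± 8.28 and 46.4 ± 3.37 CPM in control, inhibitor, TGFβ and combined libraries, and *Mapk14*, the gene of p38α, at 49.6 ± 1.23, 50.2 ± 5.49, 47.9 ± 4.68 and 47.1 ± 1.79 CPM (SD, n = 3). Neither was called in any comparison. With TGFβ against control 2 rose and 0 fell (median 0.00, against 0.02 over all genes, of which 19.4% were called higher and 17.1% lower), and in the combined group against the inhibitor 5 rose and 0 fell (median 0.18, all genes 0.00, 18.0% higher and 18.3% lower). The phosphatase genes *Dusp1* and *Dusp8*, whose products switch these kinases off, rose 2.51-fold and 2.59-fold in the first comparison (adjusted p 0.00116 and 2.56e-06) and 3.90-fold and 3.35-fold in the second (adjusted p 6.34e-05 and 9.49e-08). When the inhibitor was added to TGFβ, 0 of 13 were called by edgeR, where 10.4% of all genes were (median 0.05, all genes -0.02). Of the 13, 1 had an unadjusted p below 0.05, and DESeq2 and limma with quality weights called 0. Under the inhibitor alone, where 8.27% of all genes were called, 1 gene of the list fell and 0 rose (median -0.19). It was *Mapk11*, the gene of p38β, from 8.78 ± 1.07 to 5.16 ± 0.281 CPM (log2 -0.77 ± 0.21, adjusted p 0.0327). The call was lost without control replicate 1 (0.0910), 2 (0.0582) or 3 (0.150) or inhibitor replicate 1 (0.0730), 2 (0.111) or 3 (0.0836).

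Most binding partners in the cell cycle rose with TGFβ. Of 10 tested, 8 rose and 0 fell against control (median 0.75), where 19.4% of all genes were called higher and 17.1% lower. In the combined group against the inhibitor 7 rose and 0 fell (median 0.66), where 18.0% of all genes were called higher and 18.3% lower. *Ccnb1*, the cyclin of CDK1, stood at 33.2 ± 0.948 CPM in the controls, 27.4 ± 1.18 with the inhibitor, 54.4 ± 9.33 with TGFβ and 53.5 ± 4.04 in the combined group (SD, n = 3), and rose 1.95-fold in the combined group against the inhibitor (adjusted p 8.44e-06). *Cdk1*, the mitotic kinase itself, stood at 101 ± 2.04, 84.9 ± 3.04, 185 ± 78.8 and 151 ± 16.6 CPM in control, inhibitor, TGFβ and combined libraries. TGFβ replicate 2 held 100.2 CPM of it, within the controls (99.3 to 103.1 CPM). With TGFβ against control *Cdk1* rose 1.81-fold (adjusted p 0.0187). That call was lost without control replicate 1 (0.0521) or 2 (0.0515) or TGFβ replicate 1 (0.0659) or 3 (0.0514). In the combined group against the inhibitor *Cdk1* rose 1.78-fold (adjusted p 0.0214). This was not called without combined replicate 1 (0.0824) or 2 (0.0714) or inhibitor replicate 1 (0.0749), 2 (0.0632) or 3 (0.0770). *Pcna*, the sliding clamp of DNA polymerase, rose 1.87-fold with TGFβ (adjusted p 0.000424). With the inhibitor added to TGFβ 3 fell and 0 rose (median -0.21, 3.45% of all genes being called higher and 6.97% lower). They were *Pcna* (1.60-fold, adjusted p 0.0164), the mitotic kinase *Aurka* (1.45-fold, 0.0244) and *Ccnb2* (1.45-fold, 0.0401). These calls were not firm: that of *Pcna* ended without combined replicate 2 (0.0617) or 3 (0.0645) or TGFβ replicate 2 (0.0633), that of *Aurka* without combined replicate 2 (0.121) or 3 (0.114), and that of *Ccnb2* without combined replicate 1 (0.0647), 2 (0.181) or 3 (0.120) or TGFβ replicate 1 (0.0602) or 3 (0.0842). *Cdkn1a*, the gene of p21, was far more abundant than the Gadd45 genes, at 1878 ± 95.4, 2109 ± 71.3, 2333 ± 305 and 2220 ± 72.5 CPM in control, inhibitor, TGFβ and combined libraries, and rose 1.24-fold with TGFβ (adjusted p 0.0189), a call lost without control replicate 1 (0.0971) or TGFβ replicate 1 (0.0809), with library size alone (0.0696) and in the fit of these 2 groups (0.0976). It was not called with the inhibitor alone (0.17 ± 0.10, adjusted p 0.36) or with it added to TGFβ (-0.07 ± 0.10, adjusted p 0.699). Under the inhibitor alone 1 of the 10 was called, where 8.27% of all genes were (median of the list -0.26, all genes 0.01). It was the nucleolar *Npm1* (-0.31 ± 0.09, adjusted p 0.0332), uncalled without control replicate 1 (0.109), 2 (0.105) or 3 (0.118) or inhibitor replicate 2 (0.108) or 3 (0.0926).

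**Figure D5:**
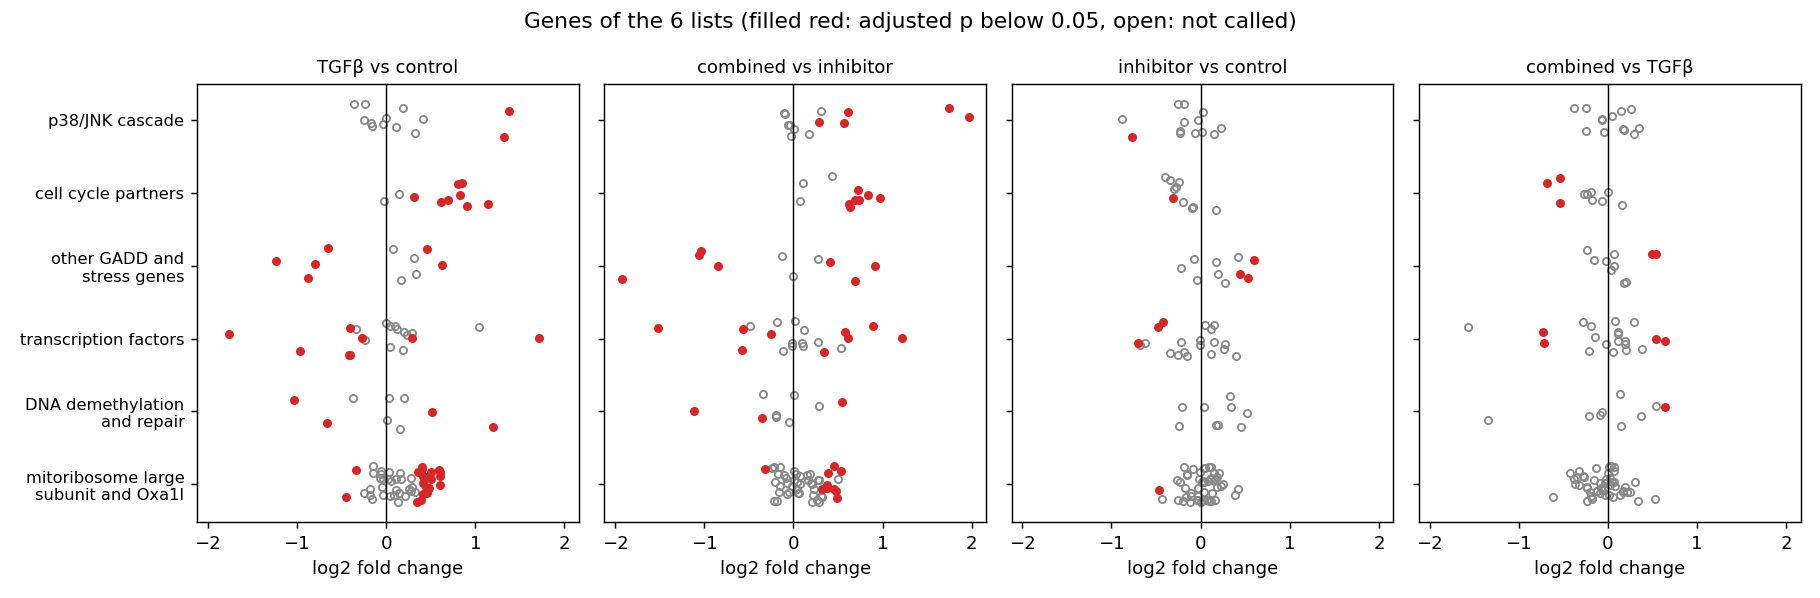
Log2 fold change (horizontal axis) of the tested genes of 6 lists in 4 comparisons, 1 point for each gene and filled where the adjusted p is below 0.05; *Tet1*, at 0 counts in the combined group, is left out. Cell cycle partners lie to the right in both TGFβ comparisons, 8 and 7 of 10 being called (36.5% and 36.3% of all genes). For the inhibitor added to TGFβ 0 of 49 tested genes of the mitochondrial ribosome list are called (10.4% of all genes).

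Other genes first named for growth arrest and DNA damage did not share one pattern with *Gadd45a*. *Ddit3* (GADD153, CHOP), a transcription factor of the integrated stress response, stood at 140 ± 5.80 CPM in the controls, 191 ± 11.6 with the inhibitor, 88.1 ± 14.4 with TGFβ and 91.6 ± 10.2 in the combined group (SD, n = 3). It fell 2.08-fold in the combined group against the inhibitor (adjusted p 8.13e-07), and with the inhibitor added to TGFβ the difference was 0.04 ± 0.12 (adjusted p 0.874), where *Gadd45a* gave 1.36; the difference between the 2 genes was not tested. The inhibitor alone raised *Ddit3* 1.36-fold (adjusted p 0.0204); this was not called without control replicate 1 (0.0905), 2 (0.0582) or 3 (0.0914) or inhibitor replicate 1 (0.0699) or 2 (0.0957). *Ppp1r15a* (GADD34), which ends the block on protein synthesis, was called in no comparison, at 39.1 ± 4.01, 44.8 ± 0.556, 41.8 ± 9.88 and 40.9 ± 1.62 CPM. Of the 10 genes of this list 3 rose and 0 fell with the inhibitor alone (median 0.23, all genes 0.01, of which 2.47% were called higher and 5.80% lower, 335 and 788 genes, or 204 and 1036 when scaled by library size alone). The firmest was *Ndrg1*, a stress and hypoxia gene, up 1.45-fold (adjusted p 0.00129), and the third was the pseudokinase gene *Trib3*, up 1.51-fold (adjusted p 0.0271), lost without control replicate 1 (0.0540), 2 (0.133) or 3 (0.0817) or inhibitor replicate 1 (0.0745), 2 (0.0593) or 3 (0.102). With the inhibitor added to TGFβ 2 rose and 0 fell (median 0.07), where 3.45% of all genes were called higher and 6.97% lower. *Trib3* rose 1.45-fold (adjusted p 0.0403), not called without combined replicate 1 (0.0612) or 3 (0.112) or TGFβ replicate 1 (0.149) or 3 (0.0690), and the glutathione-degrading *Chac1* 1.41-fold (0.0478), not called without combined replicate 1 (0.167), 2 (0.0728) or 3 (0.0744) or TGFβ replicate 1 (0.162) or 2 (0.0654). With TGFβ against control 2 rose and 4 fell (median 0.12), where 19.4% of all genes were called higher and 17.1% lower. In the combined group against the inhibitor 3 rose and 4 fell (median -0.07), where 18.0% of all genes were called higher and 18.3% lower. Among the called genes of the list were *Asns*, asparagine synthetase (1.89-fold up, adjusted p 7.68e-05), and *Atf3* (2.05-fold down, adjusted p 0.000148).

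Of 20 transcription factors known to act on Gadd45 genes, 3 fell and 0 rose with the inhibitor alone (median -0.08). Of all genes 5.80% were called lower and 2.47% higher there. *Trp53*, the gene of p53, was lowest there, at 25.7 ± 0.835 CPM against 41.7 ± 2.23 in the controls, 44.8 ± 5.63 with TGFβ and 39.2 ± 5.88 in the combined group (SD, n = 3). It fell 1.62-fold with the inhibitor (adjusted p 0.00235), in the group in which *Gadd45a* was highest, and a link between the 2 genes was not tested. Large T antigen, which the cells carry, is known to bind p53, and its part in these levels was not tested. *Smad3*, a transducer of TGFβ signals, stood at 177 ± 4.80 CPM in the controls, 131 ± 7.82 with the inhibitor, 145 ± 18.8 with TGFβ and 88.3 ± 1.59 in the combined group, and fell 1.65-fold when the inhibitor was added to TGFβ (adjusted p 0.000146). The inhibitor alone lowered it 1.34-fold (adjusted p 0.0114), which was not called without control replicate 2 (0.0548) or 3 (0.0573). *Nfkb1*, a subunit of NF-kB, was the third (1.39-fold, adjusted p 0.0306), lost without control replicate 1 (0.125), 2 (0.1) or 3 (0.0622) or inhibitor replicate 1 (0.115) or 3 (0.142). With the inhibitor added to TGFβ 2 rose and 2 fell (median 0.09): *Junb* (1.45-fold up, adjusted p 0.0154) was not called without combined replicate 1 (0.0868) or 3 (0.0693), *Egr1* (1.56-fold up, 0.0251) not without combined replicate 1 (0.114), 2 (0.0757) or 3 (0.0595) or TGFβ replicate 1 (0.0847), and *Brca1* (1.65-fold down, 0.0352) not without combined replicate 2 (0.138) or 3 (0.133) or TGFβ replicate 1 (0.0539) or 2 (0.0671). In the combined group against the inhibitor 5 rose and 4 fell (median 0.06), *Egr1* falling 2.87-fold (adjusted p 2.04e-06) and *Nfkb1* rising 1.86-fold (adjusted p 2.41e-05). With TGFβ against control 2 rose and 6 fell (median 0.04), where 19.4% of all genes were called higher and 17.1% lower. The shares of all genes were 18.0% higher and 18.3% lower in the combined group against the inhibitor. With the inhibitor added to TGFβ they were 3.45% and 6.97%.

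Among 10 genes of DNA demethylation and repair, *Tet3*, which oxidises methylated cytosine, stood at 93.0 ± 5.77 CPM in control, 117 ± 4.80 in inhibitor, 58.7 ± 7.08 in TGFβ and 91.6 ± 6.65 in combined libraries (SD, n = 3), and rose 1.56-fold with the inhibitor added to TGFβ (adjusted p 0.000955). *Tet1* had 31 counts in the controls, 38 with the inhibitor, 14 with TGFβ and 0 in the combined group, and so was at least 5.05-fold lower there than with TGFβ at a floor of 3 counts over the group, a call (adjusted p 0.0164) lost without combined replicate 1 (0.0524), 2 (0.0513) or 3 (0.0502) or TGFβ replicate 1 (0.0543). These 2 were the calls of that comparison (median 0.03), where 10.4% of all genes were called. Under the inhibitor alone 0 of 10 were called by edgeR (median 0.26), where 8.27% of all genes were. Of the 10, 4 had an unadjusted p below 0.05, DESeq2 called 0 and limma with quality weights 5. With TGFβ against control 2 rose and 2 fell (median 0.02), where 36.5% of all genes were called. Of the 2 that rose, *Tdg* had 1.48 ± 0.552 CPM in control and 3.20 ± 1.77 CPM in TGFβ libraries (adjusted p 0.0436, edgeR). Its call was lost without control replicate 1 (0.137) or 2 (0.131) or TGFβ replicate 2 (0.422), and with DESeq2 (0.0853) among other settings. In the combined group against the inhibitor 1 rose and 3 fell (median -0.19), where 36.3% of all genes were called.

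Most partners of GADD45GIP1 in the mitochondrial ribosome were not called with the inhibitor, and neither were most genes of the whole table. Of all tested genes 8.27% were called with the inhibitor alone and 10.4% when it was added to TGFβ. Of 50 listed genes, 49 large-subunit genes with the insertase gene *Oxa1l*, 49 were tested. The inhibitor alone lowered *Mrpl16* (-0.46 ± 0.10, adjusted p 0.0065), 1 call of edgeR in the list, where DESeq2 also called 1 (median 0.03, all genes 0.01); 4 had an unadjusted p below 0.05 and limma with quality weights called 4. With the inhibitor added to TGFβ 0 were called by edgeR or DESeq2 (median -0.04, all genes -0.02), 2 by limma with quality weights, and 8 had an unadjusted p below 0.05. With TGFβ against control 18 rose and 2 fell (median 0.17), where 19.4% of all genes were called higher and 17.1% lower. Among those that rose was *Mrpl13* (1.52-fold up, adjusted p 0.000139, edgeR). In the combined group against the inhibitor 9 rose and 1 fell (median 0.07), where 18.0% of all genes were called higher and 18.3% lower.

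For the interaction, in which 1.11% of all genes were called (0.641% higher and 0.471% lower), 1 gene of the 6 lists was called, *Ndrg1*, and 0 of the other 5 lists by edgeR or DESeq2. An unadjusted p below 0.05 was found for 0 of the p38 and JNK list, 1 of the cell cycle list, 3 of the transcription factors, 2 of the demethylation list and 3 of the mitochondrial ribosome list, and limma with quality weights called 0, 0, 1, 1 and 1 of them.

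Over the 12 libraries and 8753 genes of at least 10 CPM on average, the log2 levels most like those of *Gadd45a* were of *Cdk10*, a cyclin-dependent kinase (Pearson r 0.95), the nuclear RNA *Malat1* (0.95), the MAX partner *Mxd1* (0.95) and the glycosylation enzymes *Mogs* and *Alg1* (0.94 each). *Malat1* had 19769 CPM in the controls, 34407 with the inhibitor, 13614 with TGFβ and 25214 in the combined group, the same order as *Gadd45a*. For *Gadd45b* they were the cadherin *Celsr2* (0.99), *Iqgap1*, *Senp5*, *Spsb1* and *Vmp1* (0.98 each), and for *Gadd45g* the collagens *Col5a1* and *Col4a4*, the LIM protein *Csrp2*, the calcium pump *Atp2b4* and the TGFβ target *Pmepa1* (0.99 to 1.00). For *Gadd45gip1* likeness was lower, with *Commd10* (0.88), *Mapkapk3*, *Mrpl54*, *Smg9* and *Gsn* (0.80 to 0.83). Genes with r above 0.9 numbered 38 for *Gadd45a*, 410 for *Gadd45b*, 574 for *Gadd45g* and 0 for *Gadd45gip1*. These values describe 12 libraries in 4 groups and hold the differences between the groups; after each group's mean was removed, r was 0.74 to 0.91 for the genes nearest *Gadd45b*, 0.61 to 0.83 for *Gadd45gip1*, 0.56 to 0.90 for *Gadd45g* and 0.32 to 0.77 for *Gadd45a*. By Spearman's rho the nearest 5 shared 0 genes with these for *Gadd45a*, *Gadd45b* and *Gadd45g*, and 2 for *Gadd45gip1*.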

How the data were processed

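Messenger RNA of 12 libraries was measured with QuantSeq 3′ FWD kits from 100 ng of total RNA, per the labels' protocols. The deposited values are whole-number counts of reads per gene, which the authors made with STAR and HTSeq, per the submitters' processing notes. Those notes name GRCh38, a human build, for mouse genes. Versions, strand setting and use of molecular identifiers are not given in the sources used here, so counting intervals cover counting error only. Reads outside genes were 21.1 to 26.8% of each column and ambiguous reads 0.613 to 0.802%; both were left out. Symbols were matched for 55141 identifiers.

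After filterByExpr and TMM scaling, counts were tested by robust quasi-likelihood F-tests in R 4.3.3 (edgeR 4.0.16) in 1 model of 4 group means with 8 residual degrees of freedom, with Benjamini-Hochberg adjustment over 13581 genes. Log2 CPM used a prior count of 3. No library was a duplicate: the chi-square of replicate pairs, divided by its degrees of freedom, was 3.23 to 40.9. The members and lists were chosen with earlier results of these data known. Genes were named by rule: the members, the 5 genes most like each by Pearson r at a mean of 10 CPM or more (predicted genes skipped), the called genes of each list and comparison with the largest changes (up to 3 in each direction, of which some are printed), and *Cdkn1a*, *Map3k4*, *Mapk14*, *Cdk1*, *Ccnb1*, *Pcna*, *Ddit3*, *Ppp1r15a* and *Trp53*; *E230016M11Rik* was added for its overlap. A few items are not reported here. Alternatives were RLE factors, library size alone, DESeq2 1.42.0, no filter, limma 3.58.1 with quality weights, a replicate block, 2-group fits, thinning to 2584117 counts, and leaving out each library. On simulated data the test recovered large changes more often than small ones, and in the combined group against TGFβ false calls exceeded the nominal share.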

Additional observations from a re-analysis of the deposited data

Results flagged for a closer look

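*Ndrg1*, a gene of the stress list, was the 1 gene of the 6 lists called in a test of the interaction itself. The interaction of the 4 members, 0.72 ± 0.18 for *Gadd45a*, was not tested, so they are outside this ranking. The lists too were chosen with earlier results of these data known. For *Ndrg1* the interaction was -0.69 ± 0.14 on the log2 scale (adjusted p 0.0143, edgeR). The gene stood at 472 ± 15.0 CPM in the controls, 682 ± 14.1 with the inhibitor, 200.4 ± 26.2 with TGFβ and 179.9 ± 2.97 in the combined group (SD, n = 3). The call ended without control replicate 1 (0.0648) or 2 (0.068), inhibitor replicate 2 (0.0598) or combined replicate 3 (0.0512).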

How the results depend on the processing

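*Gadd45a* in both inhibitor comparisons and *Gadd45b* and *Gadd45g* in the combined group against the inhibitor kept direction and call under all 8 alternative settings and all libraries left out. Some other *Gadd45* values moved with the setting. They include comparisons with TGFβ replicate 2, whose weight was the lowest, and the inhibitor alone against control, which holds no TGFβ library. With quality weights, TGFβ against control gave 1.81 for *Gadd45b* and 2.11 for *Gadd45g*, and the combined group against TGFβ gave 0.24 for *Gadd45b* (adjusted p 0.215), 0.22 for *Gadd45g* (0.0487) and -0.49 for *Gadd45gip1* (0.0175); the inhibitor alone gave -0.30 for *Gadd45gip1* (0.0495). *Gadd45g* with the inhibitor alone had the opposite sign with RLE factors (-0.0074), library size alone (-0.056) and DESeq2 (-0.0066). The cause was not tested.

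With each library left out, TGFβ against control ranged from -0.95 to -0.70 for *Gadd45a*, 1.67 to 2.33 for *Gadd45b* and 2.07 to 2.34 for *Gadd45g*. The combined group against TGFβ ranged from -0.28 to 0.38 for *Gadd45b* (adjusted p 0.0485 to 0.995), -0.023 to 0.25 for *Gadd45g* (0.0272 to 0.933) and -0.46 to -0.25 for *Gadd45gip1* (0.0346 to 0.396). The inhibitor alone ranged from -0.011 to 0.024 for *Gadd45g*, the combined group against the inhibitor from -0.15 to 0.078 for *Gadd45gip1*, and the interaction from -0.49 to 0.18 for *Gadd45b* and -0.037 to 0.25 for *Gadd45g*. With the inhibitor added to TGFβ, *Cdkn1a* ranged from -0.17 to 0.0023, above 0 without TGFβ replicate 1, and *Ddit3* from -0.060 to 0.16, below 0 without TGFβ replicate 3.

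Counts of all genes called depended on the fit. The inhibitor alone gave 1123, and 3044 with quality weights, 2931 from these 2 groups alone, 671 after thinning and 591 to 684 with 1 library left out. The combined group against TGFβ gave 1416, and 408 from these 2 groups alone, 798 after thinning and 762 to 1938 with 1 library left out. The interaction gave 151, and 260 with DESeq2, 306 without the filter, 462 with quality weights, 91 after thinning and 65 to 399 with 1 library left out. With library size alone the share called higher was 16.5% against 29.8% for the inhibitor alone. The 2-group fits gave 43.9% for it and 18.6% against 33.1% for the combined group against TGFβ. No scaling moved the median of all genes by 0.1. Of 120 list counts under other scalings and tools, 102 were within 1.5 times the count given. The largest gaps came with quality weights, which for the inhibitor alone called 9 of the transcription factors against 3 and 5 demethylation genes against 0, and for the combined group against the inhibitor 16 mitochondrial ribosome genes against 10.

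After each group's mean was removed, 1 of 18 same-numbered pairs of libraries correlated above 0.1 (-0.08 to 0.20). Pairs with different numbers were not compared, so these values cannot settle whether the replicate numbers pair the libraries. With the number as a replicate block the inhibitor alone called 1033 genes and *Gadd45a* gave 0.65 there and 1.36 when added to TGFβ, and no call among the *Gadd45* genes changed. TGFβ replicate 3, with 2584117 counts, limits the precision of its group.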
